A study of Caenorhabditis elegans with 2 samples.

Results

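Messenger RNA levels of 8 transcription factor genes tied to lifespan and diet restriction were read in whole Caenorhabditis elegans hermaphrodites. The genes were skn-1, hsf-1, pha-4, pqm-1, hlh-30, mml-1, mxl-2 and hif-1. They were picked by their WormBase symbols and not by their values, though earlier results of these data were known. All 8 were found among the 46748 genes of the count table. The animals were wild type (the sample titles give N2, the reference strain, while the strain field leaves it unspecified), aged 5 days, and fed Escherichia coli OP50 that had been killed by heat. The 2 libraries form 1 group, with no other diet, genotype or age beside them. The labels do not tie the libraries to different cultures, and the spread between replicates may therefore be technical only.

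Each of these genes encodes a protein that switches other genes on or off when food, heat, oxygen or toxins change. SKN-1 is the worm relative of mammalian Nrf proteins and drives detoxification genes, HSF-1 is the heat shock factor, and PHA-4 is a FoxA factor that specifies the pharynx and is needed for the long life of diet-restricted animals. PQM-1 is a zinc finger protein that enters the nucleus when the FOXO factor DAF-16 leaves it, HLH-30 is the relative of TFEB, the master regulator of autophagy and lysosome genes, MML-1 and MXL-2 are the partners of the Mondo and Mlx complex, and HIF-1 is the hypoxia-inducible factor. Many of these proteins are controlled by entry into the nucleus or by degradation, so a transcript level is not a measure of their activity.

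Replicate 1 held 28164638 counts and replicate 2 held 31271070. At least 10 counts in both libraries were taken as detection, which 12757 genes reached, 12268 of them protein-coding. Levels of a gene between libraries are given in CPM (counts scaled to the total of their own library), and levels of different genes in CPM per kb of merged exon. Markers of intestine, germline, body wall muscle, pharynx, neurons and epidermis were each detected in full. Germline markers had a median of 351 ± 0.0188 CPM per kb and intestinal ones 748 ± 11.9 (SD of the library medians, n = 2). Of 6 sperm marker genes, 2 were detected. Those not detected were spe-11, msp-142 and both identifiers named msd-1. How reads shared by gene copies were counted was not examined, so that number is not a measure of sperm RNA.

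The 8 genes were spread over a wide range of levels, with skn-1 and mxl-2 at the top and pha-4 far below the rest. skn-1 stood at 112 and 106 CPM per kb in replicates 1 and 2, and mxl-2 at 90.9 and 91.0. hsf-1 followed at 56.6 and 51.6 CPM per kb. The detected protein-coding genes had a median of 11.5 CPM per kb, so all 3 genes were well above the typical expressed gene.

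hif-1 stood at 53.3 and 50.9 CPM per kb. pqm-1 was at 13.8 and 13.9 CPM per kb. mml-1 was at 13.4 and 13.7 CPM per kb. These levels place hif-1 beside hsf-1, while pqm-1 and mml-1 sat just above the median gene. hlh-30, at 11.7 and 10.97 CPM per kb, lay at the median, above 50.4% and 49.3% of detected protein-coding genes. pha-4 was lowest at 1.55 and 1.497 CPM per kb, above 23.2% and 22.5% of them. In RNA from whole animals, fewer cells of a type and less RNA per cell cannot be told apart, which matters most for a gene used in few cells.

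**Figure D1:**
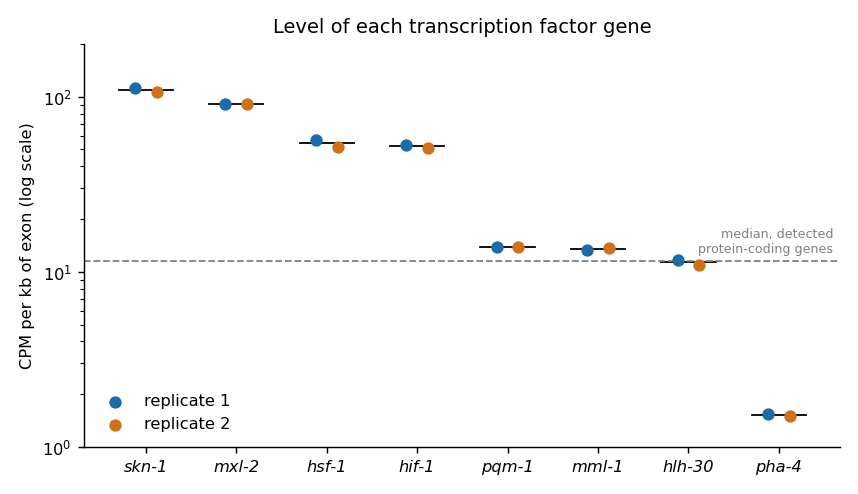
Level of each of the 8 genes in CPM per kb of merged exon (log axis), with a point for each of the 2 libraries, a bar at their mean and a dashed line at the median of detected protein-coding genes, 11.5. skn-1 and mxl-2 lie near 100, hsf-1 and hif-1 near 50, pqm-1, mml-1 and hlh-30 near the median and pha-4 at 1.52 ± 0.0353 (SD, n = 2).

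The order was the same in both libraries. skn-1 (109 ± 4.52 CPM per kb, SD, n = 2) exceeded mxl-2 (90.9 ± 0.0616) by 1.20-fold with no overlap between their libraries. hsf-1 (54.1 ± 3.48) and hif-1 (52.1 ± 1.73) overlapped, 1.04-fold apart, so these neighbours do not differ beyond their spread. pqm-1 (13.9 ± 0.00488) and mml-1 (13.5 ± 0.27) were 1.02-fold apart without overlap. That order is not firm, because it turned with the gene lengths behind the deposited RPKM. With those values rescaled to each library's total, pqm-1 was at 13.1 and mml-1 at 13.8. With the longest transcript as the length the order held, at 13.9 CPM per kb for pqm-1 and 13.6 for mml-1. hlh-30 (11.3 ± 0.494) was next, and with its longest transcript as the length, 14.3 CPM per kb, it passed both. pha-4 was 7.44-fold below hlh-30, and the highest gene exceeded the lowest by 72.5-fold and 70.6-fold in the 2 libraries.

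Length accounts for several moves within this order. By CPM alone, hif-1 (154 ± 5.11 CPM) ranked next after skn-1 and mxl-2 (63.5 ± 0.043) came after hsf-1, because the merged exons of mxl-2 measure 698 bases and those of hif-1 2960. pqm-1 (15.1 CPM), with merged exons of 1087 bases, likewise fell below mml-1 (48.4) and hlh-30 (37.0). The authors' own gene lengths, recovered from their counts and RPKM, were 702 bases for mxl-2 and 3032 for hif-1. They were 3392 for skn-1, 1.15 times its merged exons, and with that length skn-1 stood at 95.03 ± 3.94 RPKM, still above mxl-2 at 90.4 ± 0.0606. The other members differed from their merged exons by less than 10%.

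**Figure D2:**
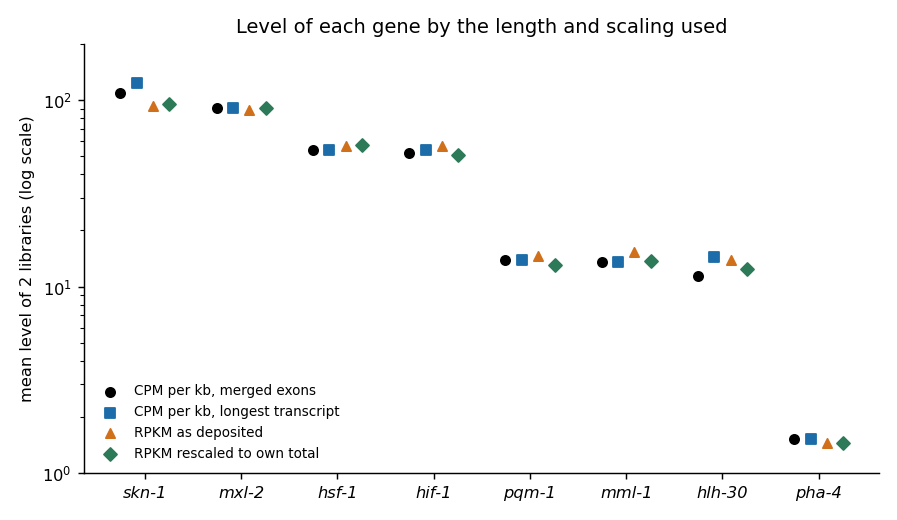
Mean level of the 2 libraries for each gene (log axis) by 4 ways of scaling: CPM per kb of merged exons, CPM per kb of the longest transcript, RPKM as deposited, and RPKM rescaled to each library's own total. skn-1, mxl-2, hsf-1, hif-1 and pha-4 keep their places, while pqm-1, mml-1 and hlh-30 change places among themselves.

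None of the 8 genes differed between the libraries by the size asked for, an adjusted p under 0.05 and at least 2-fold. Over all 14397 genes tested, 0.827% were called, made up of 0.257% higher and 0.57% lower in replicate 2 (exact binomial test of each gene's counts, two-sided, with Benjamini-Hochberg adjustment over all genes). With no fold minimum, 2 members passed, against 11.6% of all genes, and 3 had an unadjusted p under 0.05, against 21.2% of all genes. hsf-1 was at 140 and 128 CPM in replicates 1 and 2 (adjusted p = 0.00043 in the exact binomial test), and skn-1 at 332 and 313 CPM (adjusted p = 0.000251). Both were slightly lower in replicate 2, with log2 ratios of -0.14 and -0.09.

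hif-1, at 158 and 151 CPM, had a log2 ratio of -0.08 and did not pass (adjusted p = 0.0911, exact binomial test). The other 5 had adjusted p-values from 0.393 to 1 in that test. The test holds counting error only and compares these libraries, not conditions. The median absolute log2 ratio was 0.07 over the 8 genes and 0.10 over all detected genes.

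**Figure D3:**
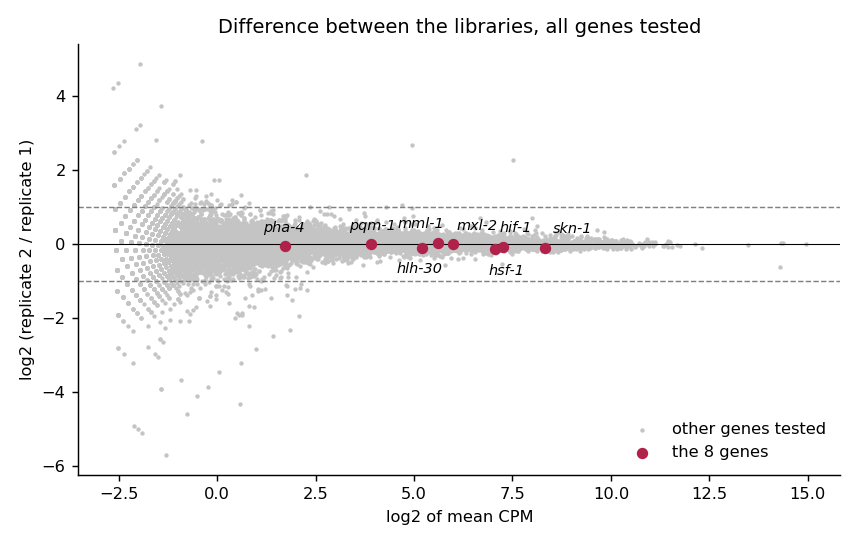
Log2 ratio of replicate 2 to replicate 1 against the log2 of mean CPM for the 14397 genes tested (grey) and the 8 transcription factor genes (red, labelled), with dashed lines at 2-fold. All 8 lie close to 0, the farthest being hsf-1 at -0.14.

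The annotation gives these genes very different structures, and counts per gene do not separate their transcripts. hlh-30 (WBGene00020930, chromosome IV, 4014793 to 4034951 of WBcel235, minus strand) has 13 annotated transcripts with 9 different coding lengths, for proteins of 361 to 524 residues, and only 16.21% of its span is exon. skn-1 (WBGene00004804, chromosome IV, 5651039 to 5660384, minus strand) has 4 transcripts for proteins of 223 to 623 residues. hif-1 (WBGene00001851, chromosome V, 20780407 to 20785260, plus strand) has 6 for proteins of 503 to 721. The long and short forms of SKN-1 are known to differ in where they act, and none of the values here tells them apart.

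pqm-1 (WBGene00004096, chromosome II, 11150391 to 11152595, minus strand) and mxl-2 (WBGene00003510, chromosome III, 186949 to 188131, minus strand) have 1 transcript each, for proteins of 295 and 205 residues. pha-4 (WBGene00004013, chromosome V, 20753052 to 20760317, plus strand) has 3 transcripts, hsf-1 (WBGene00002004, chromosome I, 11953507 to 11963085, minus strand) has 2 and mml-1 (WBGene00003378, chromosome III, 7370130 to 7374731, minus strand) has 2. Exons of skn-1 share 41 bases with those of csn-5 on the other strand, 1.39% of its exon length, and those of mml-1 share 97 bases with a non-coding gene that had 0 counts. No exon of the other 6 overlaps another gene in this annotation. Whether the counting used strand is not stated, and reads in the 41 bases shared with csn-5 may belong to either gene.

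pha-4 and hif-1 are near neighbours in the genome and far apart in level. They lie 20.1 kb apart on chromosome V, both on the plus strand, with 3 protein-coding genes between them. Those genes, elp-1 (1.31 ± 0.113 CPM per kb), F38A6.4 (0.692 ± 0.0149) and F38A6.5 (2.06 ± 0.346), were low as well, and hif-1 (52.1 ± 1.73) stood above all of them.

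For SKN-1, the listed regulator genes were all expressed, and its detoxification targets ranged from high to nearly silent. The restraining adaptor gene wdr-23, whose product marks SKN-1 for degradation, was at 53.95 and 51.2 CPM per kb. The log2 ratio of wdr-23 to skn-1 was -1.05 ± 0.00623 (SD, n = 2), so skn-1 was 2.07-fold higher. By the authors' gene lengths the log2 ratio was -0.40, or 1.32-fold, as their length was 0.73 times the merged exons for wdr-23 and 1.15 times for skn-1.

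All 12 regulators of SKN-1 were detected, with a median of 32.5 ± 1.03 CPM per kb. The highest were ddi-1 (104 ± 0.552), a protease gene needed to activate one SKN-1 form, xrep-4 (76.1 ± 0.443) and ddb-1 (56.4 ± 1.11), a subunit of the ligase that WDR-23 serves. The lowest were the p38 kinase gene pmk-1 (11.1 ± 0.178) and tir-1 (4.45 ± 0.197), which acts at the head of the same kinase cascade. The ligase genes wdr-23, ddb-1 and cul-4 (40.9 ± 0.0167 CPM per kb) thus all lay above the kinase cascade, in which nsy-1 was at 14.5 ± 0.538 and sek-1 at 16.3 ± 0.465. cul-4, nsy-1 and sek-1 are named outside the naming rule, after their values were seen.

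Of 15 detoxification targets 13 were detected, with a median of 21.97 ± 1.49 CPM per kb. The glutathione transferase gene gst-7 led at 211 ± 7.49 CPM per kb, followed by the glutathione reductase gene gsr-1 (122 ± 4.15) and gcs-1 (61.6 ± 0.353), which makes the rate-limiting enzyme of glutathione synthesis. gst-12 and gst-38 were lowest, with 10 and 7 counts and with 2 and 11 counts in replicates 1 and 2, below the detection limit. The reporter gene of SKN-1 activity most used in worms, gst-4, was at 20.4 and 23.5 CPM per kb, near the list's median, and is named here outside the naming rule, after its values were seen.

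Per kb, HSF-1 had an abundant inhibitor transcript, mostly abundant genes listed as basal targets, and scarce ones listed as heat-inducible. hsb-1, which encodes a small protein that binds and restrains HSF-1, was at 90.9 and 100 CPM per kb. It exceeded hsf-1 by 0.82 ± 0.194 on the log2 scale, 1.77-fold, and by 0.68 and 0.96 in replicates 1 and 2. By the authors' gene lengths the log2 ratio was 0.50, or 1.42-fold. The excess rests on the division by length, as the merged exons of hsb-1 measure 599 bases and those of hsf-1 2478. Without it hsf-1 was higher, with 3948 and 4002 counts against 1534 and 1881 for hsb-1. Per kb, ddl-1 (27.7 ± 1.47 CPM per kb) and ddl-2 (8.08 ± 0.14), whose products hold HSF-1 in an inhibitory complex with HSB-1, were lower than hsb-1, as was the kinase gene hpk-1 (12.3 ± 0.52).

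Control by HSF-1 of the 8 genes listed as basal targets was not tested here. Of these, the small heat shock protein gene sip-1 was highest at 5435 ± 80.7 CPM per kb, then the HSP70 gene hsp-1 (1585 ± 2.44) and hsp-90 (1229 ± 43.4). The lowest were dnj-13 (132 ± 3.03), a co-chaperone gene, and hsp-12.6 (0.545 ± 0.0525). Their median was 158 ± 3.09 CPM per kb. Of 9 inducible genes 4 were detected, led by hsp-16.2 with 30 and 53 counts, hsp-16.48 with 32 and 22 and hsp-16.41 with 30 and 39. These 4 had a median of 1.97 ± 0.103 CPM per kb. Both identifiers named hsp-16.1 and the second one named hsp-16.48 were listed at 0 in both libraries, where 3 counts would be 0.107 and 0.0959 CPM. The hsp-16 copies are near-identical, so how their reads were shared out is uncertain. These zeros and the number detected are therefore uncertain too, and the floor does not cover reads left uncounted. F44E5.4 and F44E5.5, also undetected, had 1 count each in both libraries. They are named outside the naming rule, after their values were seen.

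pha-4 was scarce, and so were most of the pharyngeal genes it controls, while its cofactors were not. pha-4 had 94 and 101 counts, or 3.34 CPM (95% Wilson interval 2.73 to 4.08) in replicate 1 and 3.23 CPM (2.66 to 3.92) in replicate 2. Those intervals overlap and cover counting error only. smk-1, whose product is needed with PHA-4 for the long life of diet-restricted worms, was at 81.3 and 80.4 CPM per kb, 53.1-fold above pha-4. The phosphatase gene pph-4.1 was at 39.3 ± 1.13 CPM per kb. The nutrient-sensing kinase genes let-363 (worm TOR, 37.3 ± 1.15) and rsks-1 (S6 kinase, 64.4 ± 1.91), which act upstream, were likewise far above it.

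Of 10 pharyngeal targets 8 were detected, with a median of 5.49 ± 0.382 CPM per kb. The troponin gene tni-4 led at 21.4 ± 0.446, followed by the pharyngeal myosin genes myo-1 (7.23 ± 0.759) and myo-2 (7.07 ± 0.534). The lowest were phat-1, a pharyngeal gland gene (6 and 5 counts), and ceh-22 (10 and 10 counts), a homeobox gene that starts pharyngeal muscle formation. The pharynx is a small part of an adult worm, and the share of pharyngeal cells in these RNA samples was not measured. The targets tni-4, myo-1, myo-2 and tnc-2 also make up the pharynx marker list, so these lists are not independent.

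pqm-1 was near the typical gene and below daf-16, and the DAF-16-downstream genes named dod ranged from abundant to absent. pqm-1 had 424 and 471 counts, 15.1 CPM in each library. daf-16 was at 33.5 and 37.6 CPM per kb and exceeded pqm-1 by 1.36 ± 0.117 on the log2 scale, 2.56-fold. Over the length and library choices tried, daf-16 was 2.26-fold to 3.41-fold higher than pqm-1. Among its other regulators and partners, rict-1, the core of TOR complex 2, was at 62.5 ± 1.32 CPM per kb, while the kinase gene sgk-1 (5.11 ± 0.161) and the homeobox genes unc-62 (5.76 ± 0.152) and ceh-60 (1.55 ± 0.0102) were below the median gene. ceh-60 and unc-62 are known to act with PQM-1 in the control of yolk and stress genes in the intestine.

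Of 8 dod genes 6 were detected, with a median of 16.7 ± 0.586 CPM per kb. The 3 highest were dod-23 (195 and 170 CPM per kb), dod-19 (109 and 139) and dod-24 (21.1 and 22.1). dod-20 had 1 and 2 counts, and dod-21 was listed at 0. dod-19 was higher and dod-23 lower in replicate 2, with log2 ratios of 0.35 and -0.20 (adjusted p = 5.63e-31 and 1.34e-08, exact binomial test), so the pair moved in opposite directions between libraries of the same group. Neither reached 2-fold.

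hlh-30 was near the median gene, whereas the genes that control its protein and most of its autophagy and lysosome targets were higher. hlh-30 had 1074 and 1121 counts, 38.1 and 35.8 CPM. All 8 regulators were detected, with a median of 46.1 ± 1.65 CPM per kb. ragc-1 (146 ± 7.03) and raga-1 (106 ± 1.86) encode the GTPases that bring TOR to the lysosome, and xpo-1 (142.3 ± 4.21) encodes the exportin that takes HLH-30 out of the nucleus. The lowest were the AMP-activated kinase gene aak-2 (22.2 ± 0.322) and mxl-3 (7.06 ± 0.871). mxl-3 encodes a repressor of lysosomal lipase genes in fed animals, in opposition to HLH-30. The log2 ratio of mxl-3 to hlh-30 was -0.86 and -0.51 in replicates 1 and 2, so hlh-30 was 1.61-fold higher on average. Over the length and library choices tried, hlh-30 was 1.43-fold to 2.03-fold higher.

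All 20 autophagy and lysosome targets were detected, with a median of 24.96 ± 0.776 CPM per kb. The lysosomal protease gene cpl-1 led at 715 ± 3.09, then lgg-1 (404 ± 21.7), which encodes the autophagosome marker protein, and the lipase gene lipl-5 (311 ± 12.3). Its relatives lipl-3 (0.585 ± 0.023) and lipl-4 (0.523 ± 0.192) were lowest, so members of the same lipase family lay at both ends of the list. fmo-2, a flavin monooxygenase gene tied to diet restriction and to both HLH-30 and HIF-1, had 189 and 337 counts and a log2 ratio of 0.67 between replicates (adjusted p = 6.46e-06, exact binomial test). It is named outside the naming rule, after its values were seen.

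MXL-2 binds DNA as a pair with MML-1, yet their transcripts were at unequal levels. mxl-2 was at 90.9 and 91.0 CPM per kb and mml-1 at 13.4 and 13.7. The log2 ratio of mml-1 to mxl-2 was -2.75 ± 0.0278. mxl-2 was thus 6.71-fold higher, and 5.76-fold to 6.81-fold higher over the length and library choices tried. By CPM, without division by length, the genes were closer, at 63.5 ± 0.043 CPM for mxl-2 and 48.4 ± 0.964 for mml-1.

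The related Max and Mad genes were unequal as well. mxl-1, the worm Max, was at 137 ± 1.87 CPM per kb, its partner mdl-1, a Mad-like repressor gene, at 12.3 ± 0.898, and mxl-3 at 7.06 ± 0.871. As with mxl-2 and mml-1, the short Max-like gene was the higher of mxl-1 and mdl-1, though mxl-1 stood above mxl-2 (90.9 ± 0.0616 CPM per kb). mxl-1 and mxl-2 are also the shortest of these genes, with merged exons of 458 and 698 bases.

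hif-1 was well expressed, and the genes that mark its protein for degradation included both low and high members. hif-1 had 4444 and 4708 counts. aha-1, the partner with which HIF-1 binds DNA, was at 12.5 and 11.3 CPM per kb, so hif-1 exceeded it by 2.13 ± 0.0499 on the log2 scale, 4.38-fold. aha-1 shares 75 exon bases with mrpl-34 on the other strand. egl-9, whose product hydroxylates HIF-1 in the presence of oxygen, was at 7.09 and 7.38 CPM per kb, 7.20-fold below hif-1. That gap ran from 5.93-fold to 7.52-fold over the length and library choices tried.

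All 9 regulators and partners of HIF-1 were detected, with a median of 11.9 ± 0.805 CPM per kb. The ubiquitin ligase subunit genes rbx-1 (294 ± 2.66), cul-2 (123 ± 3.39) and elb-1 (74.3 ± 1.20), which serve many substrates, were highest. vhl-1 (5.71 ± 0.721), the adaptor that recognises hydroxylated HIF-1, and cysl-1 (5.50 ± 0.267), a sensor of hydrogen sulfide that binds EGL-9, were lowest. In this list, the factors particular to the HIF-1 route (egl-9, vhl-1, rhy-1 and cysl-1) all lay below the median protein-coding gene.

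Of 10 HIF-1 targets 9 were detected, with a median of 7.24 ± 0.208 CPM per kb, below the 11.5 of detected protein-coding genes. The highest were the ferritin gene ftn-1 (104 ± 2.73), which HIF-1 is known to repress, cysl-2 (29.6 ± 1.97) and rhy-1 (7.95 ± 0.924). The lowest were the metal importer gene smf-3 (0.540 ± 0.089), which HIF-1 is known to activate when iron is low, and F22B5.4 with 3 and 7 counts. nhr-57, a widely used readout of HIF-1 activity, was at 1.53 and 1.62 CPM per kb and is named outside the naming rule, after its values were seen.

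**Figure D4:**
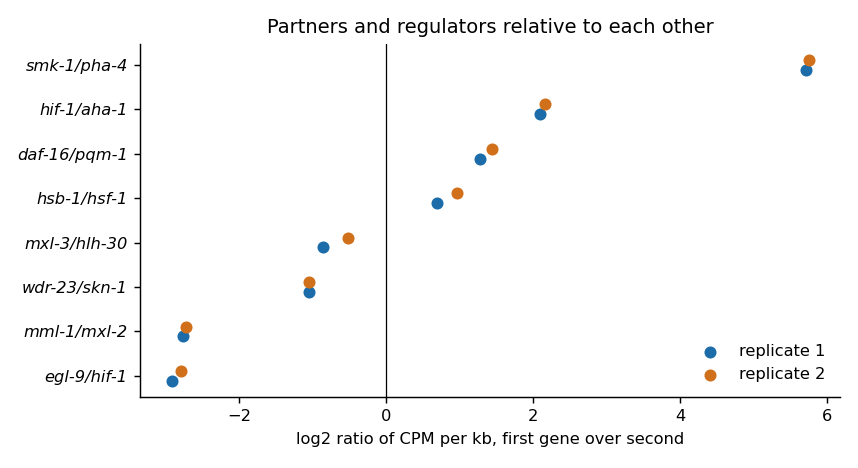
Log2 ratio of CPM per kb between each transcription factor gene and a partner or regulator, in each of the 2 libraries. The ratios run from -2.85 for egl-9 over hif-1 to 5.73 for smk-1 over pha-4, and each has the same sign in both libraries.

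Across all the surrounding lists, 124 of 137 genes were detected and 77 lay above the median of detected protein-coding genes. Of the 129 that could be tested, 0 were called between the libraries (adjusted p under 0.05 and at least 2-fold in the exact binomial test), beside 0.827% of all genes, and 37 had an unadjusted p under 0.05, where 21.2% of all genes tested did. With no fold minimum, 21 passed, or 16.3%, against 11.6% of all genes tested. These shares describe 2 libraries of 1 group and leave out the tissue marker lists. Among the markers, the epidermal gene bli-1 was called, with 52 and 19 counts in replicates 1 and 2. Its log2 ratio was -1.59 (adjusted p = 0.000305, exact binomial test).

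Beside other regulators tied to lifespan, the 8 genes covered a like range. Of 18 such genes 17 were detected, with a median of 17.7 ± 0.433 CPM per kb, and the median of the 8 genes was 32.97. The highest were the co-regulator gene hcf-1 (112 ± 2.00), xbp-1 of the endoplasmic reticulum stress response (105 ± 2.62) and zip-2 (52.2 ± 4.12). hcf-1 and xbp-1 were thus at the level of skn-1, and zip-2 at that of hsf-1 and hif-1. The nuclear receptor gene daf-12 was low at 2.79 ± 0.0398 CPM per kb, still above pha-4, and the homeobox gene ceh-23 was listed at 0. No test was made between these lists, since both were chosen with earlier results of these data known.

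**Figure D5:**
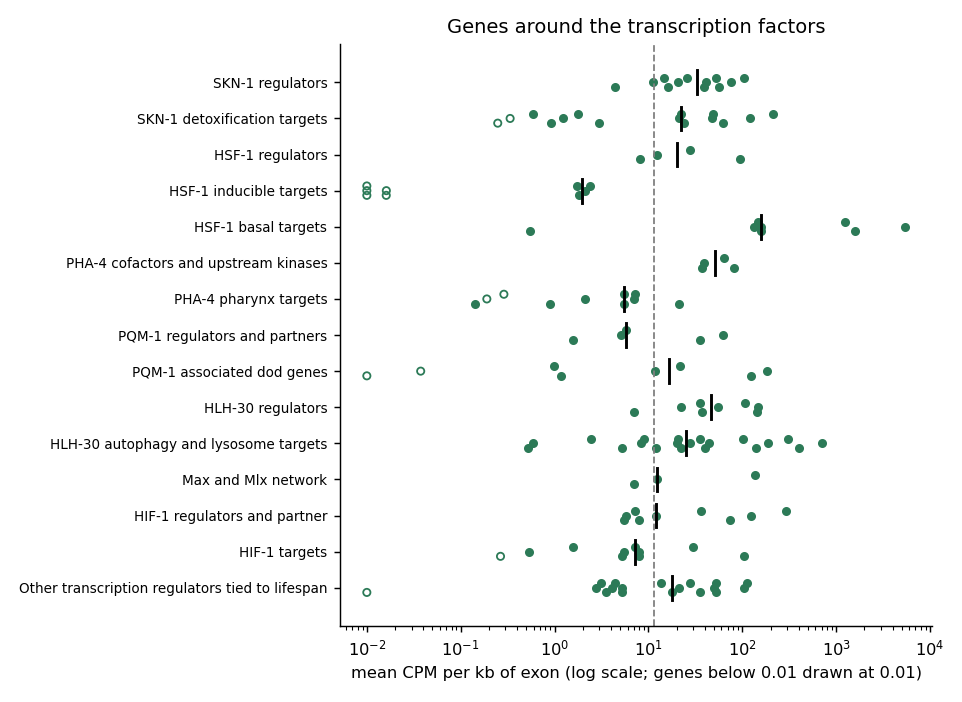
Mean level of the 2 libraries in CPM per kb of merged exon (log axis) for each gene of the 15 lists, with filled points for detected genes, open points for genes below the detection limit, black bars at the median of detected genes and a dashed line at the median of detected protein-coding genes, 11.5. The median of the basal HSF-1 targets lies to the right of that line. The medians of the inducible HSF-1 targets, pharyngeal genes, PQM-1 regulators and partners, and HIF-1 targets lie to its left. Single genes such as hsp-12.6, tni-4 and ftn-1 lie on the other side from their list's median.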

How the data were processed

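Libraries were prepared from total RNA of whole worms with an Illumina mRNA kit, per the labels' protocols. Raw counts per gene were deposited by the authors; the submitters' processing notes name STAR 2.4.1d, featureCounts 1.4.6-p4 and build WBcel235, and the annotation release and strand setting are not stated there. The authors also deposited RPKM. Those values were divided by a read total that changed with the row in a cycle of 8, equal to the library's own total in 1 of the 8 classes (5973 genes checked, 100% within 0.1% of their class), so RPKM served as an alternative, as deposited and rescaled to the library's total.

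CPM was computed from the counts and each library's total, then divided by merged exon length from Ensembl release 115 (46449 of 46748 identifiers matched). Genes whose counts summed to 10 or more were compared between libraries with a two-sided exact binomial test (scipy 1.17.1) using TMM sizes from edgeR 4.0.16, with Benjamini-Hochberg adjustment. The test was checked on simulated libraries with counting error only, so that check cannot gauge false calls where real libraries differ by more. DESeq2 1.42.0 size factors were an alternative. No model with replicates could be fitted to 1 group of 2. A chi-square test over genes gave 8.82 per degree of freedom, so the libraries are not 1 library deposited again. Intervals and floors cover counting error only.

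The members and lists were chosen with earlier results of these data known. Named are all 8 members, the 3 highest and 2 lowest genes of each list (lists of 5 or fewer in full), and partner genes. Genes of a list that were called between the libraries are named too. A search of promoters for motifs had been planned and was not made, as no promoter sequences were used here. Likeness of pattern cannot be measured over 2 libraries.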

Additional observations from a re-analysis of the deposited data

How the results depend on the processing

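The direction of all 8 partner ratios held under every length and library choice tried for them. CPM not divided by length was not among those choices. By counts alone, hsb-1 (1534 and 1881) was below hsf-1 (3948 and 4002), so the direction of that ratio rests on the division by length. The order of the 8 levels was the same without either library (8 of 8 places), while 5 places were kept with the longest transcript as length and 3 with CPM not divided by length, as the division by length sets those orders. The median level of the 8 genes, 32.97 CPM per kb, was 34.2 with the longest transcript and 36.0 with RPKM as deposited. It ran from 32.4 to 33.6 when either library was left out. The number of genes called between the libraries, 0.827% of 14397, became 71 when a summed count of 50 was required, where fewer genes are tested, and 219 genes with a minimum of 1.5-fold. None of the 8 members was called under these or under the other scalings and filters. Rescaled RPKM was added after the data were seen. The motif alternative was not run. No paired analysis was possible because there is 1 group. With 94 and 101 counts, pha-4 has the largest counting error of the 8 genes, while its spread between the libraries (CV 2.32%) is below that of hsf-1 (6.43%).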
